A study of Homo sapiens with 6 samples.

Results

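Chromosome 19 holds a dense collection of zinc finger genes, and their mRNA levels were followed in OCI-AML5 cells, an established human acute myeloid leukemia line, after exposure to the small molecule S767. Members were the protein-coding genes on chromosome 19 whose symbol is ZNF followed by a number and at most a single letter, with a mean level of at least 1 TPM (transcripts per 1000000, an RSEM estimate scaled for transcript length and library) over the 6 libraries. Of 246 such genes at any level, 189 met this limit, out of 60609 genes listed. The members were chosen by their TPM values, so the levels are given as a description. The limit is a mean over both treatments, so the difference between the treatments did not enter the choice.

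All 6 libraries came from this line, grown in alpha-MEM with heat-inactivated fetal bovine serum and GM-CSF. The control group had 3 libraries from cells given the solvent DMSO for 24 hours, and the S767 group had 3 libraries from cells given 1 μM of the compound for the same time. Poly(A) RNA was sequenced in stranded libraries. The labels do not say whether the cells were cultured separately, so p-values measure the spread between these samples only, which may be technical.

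Genes of this kind encode proteins with tandem C2H2 fingers, each a short fold held together by a zinc ion, and a run of fingers reads a run of DNA bases. Most also carry a KRAB domain, which recruits TRIM28 (KAP1) and with it the histone H3 lysine 9 methyltransferase SETDB1, and many of them silence transposable elements. They arose by repeated local duplication and lie in clusters on both arms of the chromosome, with closely related neighbours. Fingers counted in the translated coding sequences matched the label, with a median of 12 per member and a range of 0 to 31. ZNF738 had none in the transcript read, ZNF428 had 1, and ZNF91 had the most.

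STAR counted between 149994700 and 258029564 fragments per library on genes on the reverse strand, of which the members held 0.266 to 0.296%. Libraries with the same replicate number deviated together from their group means, so the counts of calls are given from a fit without the replicate number and from a fit with it as a block, and values for single genes are from the fit with the block where this is said. Of the 10 myeloid markers 9 reached 1 TPM, among them SPI1 at 236 TPM, CD33 at 97.1 TPM and CD34 at 1.43 TPM. KIT, at 0.277 TPM, did not. LYZ had 597, 264 and 244 TPM in DMSO replicates 1 to 3 and 596, 264 and 248 TPM in S767. Of the markers of other cell types, CD3E was listed at 0, HBB was at 0.00167 TPM, and PECAM1, at 2.73 TPM, was the only gene of the 7 above 1 TPM. The summed TPM of the 10 myeloid markers ran from 775 to 1181 in DMSO and from 770.4 to 1185 in S767, and that of the 7 other markers from 2.53 to 3.56 and from 2.59 to 3.7, so both sums overlapped between the groups. Of the 9 myeloid markers tested, 0 passed an unadjusted P of 0.05 without the block (edgeR). With it 1 was higher, CD33 (log2 fold change 0.11, adjusted p = 0.0241 with the block and 1.00 without it), and 2 were lower, CEBPA and MPO (adjusted p = 0.121 and 0.234 with the block). Of all genes tested, 9.38% were higher and 7.39% lower at the unadjusted limit with the block, and 3.53% passed it without the block. The part of the markers in the results was not tested.

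Most members were transcribed at low levels. Their median was 5.17 TPM, with quartiles at 2.795 and 9.02, beside 21.7 TPM for all tested protein-coding genes over the same limit. In all, 43 members reached 10 TPM and 11 reached 20. The highest was ZNF146, a protein made almost wholly of fingers, with 61.95, 62.2 and 65.7 TPM in DMSO and 63.7, 65.9 and 65.5 TPM in S767. ZNF787 followed at a mean of 40.0 TPM, ZNF317 at 37.8, ZNF428 at 36.4 and ZNF414 at 31.6. ZNF146 stood above these in every library, whereas the ranges of ZNF787 (38.8 to 41.2 TPM) and ZNF317 (34.4 to 40.3) overlapped, as did those of ZNF317 and ZNF428 (34.2 to 38.4).

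Just inside the limit lay ZNF442 at 1.03 TPM and ZNF790 at 1.075, and just outside it ZNF570 at 0.992 and ZNF460 at 0.987. Among the 57 genes below the limit, 32 were under 0.1 TPM and 14 were listed at 0 in every library. Summed over the members, the level was 1450, 1368 and 1465 TPM in the DMSO libraries and 1476, 1348 and 1451 TPM in the S767 libraries. The groups overlapped, and replicate 2 was the lowest of each.

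**Figure D1:**
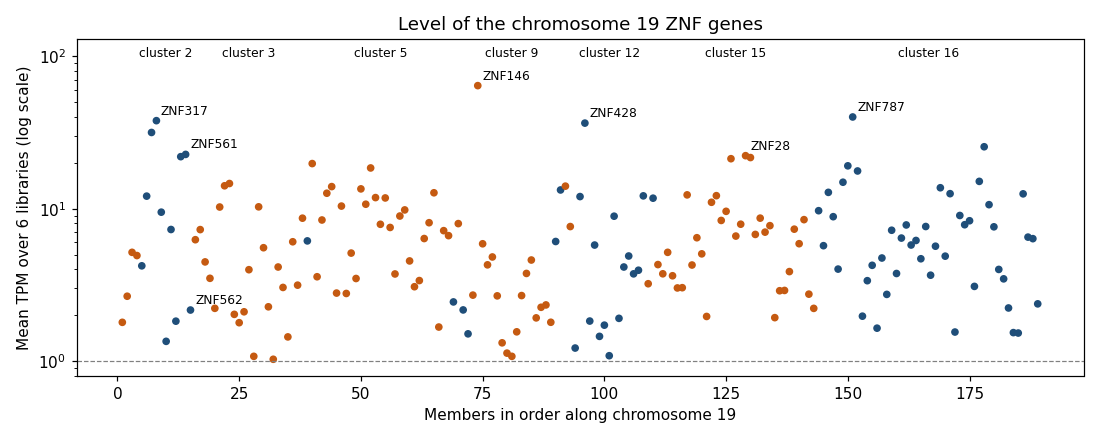
Mean TPM over the 6 libraries (vertical axis, log scale) of each of the 189 members in their order along chromosome 19 (horizontal axis), coloured alternately by cluster, with the limit of 1 TPM dashed. ZNF146 stands highest at 64.2 TPM, and the large clusters hold genes near the limit beside genes at 10 TPM or more.

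By position, the 246 genes fell into 16 clusters separated where neighbouring starts lay over 1000000 bases apart. Those with 10 or more members were 7 and held 174 of the 189 members, and the other 9 held 15. Coordinates are those of GENCODE 29 on GRCh38. On the short arm, cluster 2 (chr19:7069444-9793180) had 11 members among 15 ZNF genes, cluster 3 (chr19:11483427-12640098) had 23 among 25, and cluster 5 (chr19:19668796-24129961), home of ZNF91 and its primate-expanded relatives, had 29 among 37. On the long arm, cluster 9 (chr19:36182060-37817300) had 17 among 26, cluster 12 (chr19:43525497-45076588) had 15 among 24, cluster 15 (chr19:51571298-53580269) had 33 among 39 and cluster 16 (chr19:55476332-58481230) had 46 among 59.

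Cluster 9 combined the lowest median of the 7, 2.68 TPM, with the most highly expressed member, ZNF146. The highest medians were those of cluster 2, at 10.8 TPM over its 10 tested members, and of cluster 5, at 7.9 TPM, where ZNF101 led at 19.8. In the other 4 clusters the medians lay between 3.95 and 6.45 TPM. Their leading genes were ZNF700 at 14.6 TPM in cluster 3, ZNF428 at 36.4 in cluster 12, ZNF28 at 22.3 in cluster 15 and ZNF787 at 40.0 in cluster 16. Among the smaller clusters, ZNF574 (14.1 TPM), ZNF780A (13.3) and ZNF473 (11.7), the last of which takes part in histone mRNA processing, were the best expressed, and ZNF507 (7.98), ZNF333 (6.15), ZNF57 (5.17), ZNF114 (3.22), ZNF536 (2.445) and ZNF302 (2.17) led the rest.

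The comparison of S767 with DMSO asked whether the compound moved these genes, singly or by region, and few of them moved. Of the 188 members with enough counts to be tested, 2 rose with an unadjusted P under 0.05 in the fit without a block, ZNF561 and ZNF562, where 2.03% of all 20725 genes tested did so. In the same fit 0 members fell, where 1.51% of all genes did and 3.53% passed in either direction. After adjustment over all genes tested by edgeR's quasi-likelihood test, 0 members passed 0.05, in a fit that called 0.00483% of all genes. DESeq2 called 2 members at that limit, beside 0.13% of all genes, and limma-voom called 0.

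With the replicate block, 13 members rose and 10 fell at an unadjusted P under 0.05, beside 9.38% of all genes that rose and 7.39% that fell. The share of tested members past this limit in either direction was 12.2%, compared with 16.8% of all genes. For protein-coding genes with a TPM of at least 1 the share was 24.6%. Adjusted over all genes, 3 members were called, ZNF561, ZNF562 and ZNF358, all higher in S767 and all in cluster 2, beside 3.23% of all genes in either direction and 2.16% higher. RSEM counts with the block gave 8 members higher and 7 lower at the unadjusted limit, beside 9.72% and 7.9% of all genes (17.6% in either direction), and 3 past the adjusted limit, beside 2.09%. The member shares from the edgeR fits with the block are no higher than these backgrounds, and the 2 members called by DESeq2 are 1.06% of those tested, above its background.

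The differences were small. The median log2 fold change of the members was 0.02 both without and with the block, beside 0.00 for all genes tested, and the quartiles were -0.03 and 0.05 without the block. With the block, the 95% interval lay within ±0.1 on the log2 scale for 32 of the 188 members, within ±0.2 for 145 and within ±0.3 for 175. Without it the corresponding counts were 1, 50 and 126. A log2 fold change over 0.2 in size was found for 3 members, upward for ZNF561 and ZNF562 and downward for ZNF709. ZNF709, chosen after its value was seen, had a log2 fold change of -0.28 ± 0.29 (SE) on 218 counts over the 6 libraries, and 0.03 in the fit of RSEM counts with the block.

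**Figure D2:**
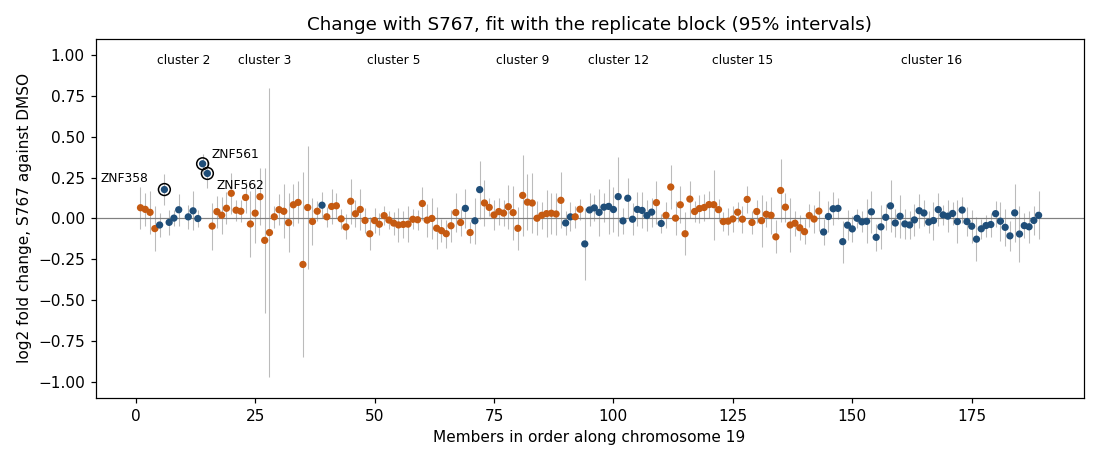
Log2 fold change of S767 against DMSO with its 95% interval (vertical axis) from the fit with the replicate block, for the 188 tested members in order along chromosome 19 (horizontal axis), coloured alternately by cluster, with circles around genes at an adjusted p under 0.05. The 3 circled genes lie in cluster 2, at 0.33 for ZNF561, 0.28 for ZNF562 and 0.18 for ZNF358.

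ZNF561 (ENSG00000171469.11, chr19:9604680-9621399, minus strand, 8 fingers) changed the most. Its level was 43.4, 37.5 and 41.4 CPM (counts per 1000000, reverse-strand counts scaled by TMM) in DMSO replicates 1 to 3, and 52.6, 48.8 and 52.7 CPM in the S767 replicates. Every S767 library was above every DMSO library, as for 5.12% of all genes tested, and within each replicate number the S767 library was the higher. The log2 fold change was 0.33 ± 0.06 (SE), a 1.26-fold rise with a 95% interval from 1.14 to 1.39, with an adjusted p of 0.837 without the block and of 0.000118 with it (edgeR quasi-likelihood test).

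ZNF562 (ENSG00000171466.10, chr19:9641808-9675086, minus strand, 6 fingers) is its neighbour, 20408 bases away. Its level was 9.79, 9.65 and 9.4 CPM in DMSO and 11.9, 11.7 and 11.3 CPM in S767. Again the groups did not overlap, and the spread within each was small, with an SD of 0.196 CPM in DMSO and 0.308 CPM in S767. The log2 fold change was 0.28 ± 0.06 (SE), a 1.21-fold rise with a 95% interval from 1.1 to 1.33, with an adjusted p of 0.00545 with the block and of 1.00 without it. An exact two-sided permutation test of log2 CPM gave p = 0.1 for ZNF561 and p = 0.1 for ZNF562, the smallest that 3 libraries against 3 allow.

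The pair also rose when fragments matching several genes were divided among them. In the RSEM counts with the block, the log2 fold change of ZNF561 was 0.33 ± 0.03 (SE, adjusted p = 0.00179) and that of ZNF562 was 0.26 ± 0.04 (adjusted p = 0.0249). Both stayed at an unadjusted P under 0.05 in all 22 alternative fits, with log2 fold changes from 0.28 to 0.38 for ZNF561 and from 0.24 to 0.30 for ZNF562. Stretches of 50 bases shared with transcripts of any other gene made up 4.52% of those of ZNF561 and 3.94% of those of ZNF562. The genes thus have few stretches in common with others, and 178 such stretches are shared by the pair.

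Next to them lie 3 members transcribed from the same strand, ZNF266, ZNF426 and ZNF121, named here for their position after their values had been seen. ZNF121 had 91.2, 92.4 and 91.8 CPM in DMSO and 92.1, 89.4 and 93.7 CPM in S767. Its groups overlapped, and its log2 fold change with the block was -0.00 (95% interval -0.05 to 0.05), which lies wholly below the intervals of ZNF561 (0.27 to 0.40) and ZNF562 (0.19 to 0.37). ZNF266 stood at 17.4, 17.1 and 18.0 CPM in DMSO and 17.8, 16.8 and 18.3 CPM in S767, with an interval from -0.06 to 0.08. ZNF426 ran from 6.54 to 8.2 CPM in DMSO and from 7.3 to 7.83 CPM in S767, with an interval from -0.07 to 0.17. The DMSO and S767 libraries thus overlapped for each of these genes, and did not for ZNF561 and ZNF562.

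On the other side of ZNF562 lie the short noncoding gene AC008759.3 and then ZNF846, a ZNF gene below the TPM limit, both named after their values were seen. AC008759.3 had 0.0137, 0.0202 and 0.0232 CPM in DMSO and 0.0588, 0.067 and 0.0762 CPM in S767, on 53 counts in all. Its groups did not overlap, and its log2 fold change was 1.80 ± 0.49 (SE) with the block (adjusted p = 0.0702) and 1.78 ± 0.40 without it (adjusted p = 1.00, edgeR). ZNF846 had 0.723, 0.861 and 0.866 CPM in DMSO and 0.882, 1.01 and 1.05 CPM in S767, on 1106 counts in all. Its groups did not overlap either, and 5.12% of all genes tested were likewise higher in S767 without overlap. The log2 fold change of ZNF846 was 0.26 ± 0.11 (SE) with an adjusted p of 0.253 with the block (edgeR). ZNF561-AS1, an antisense transcript that starts inside the GENCODE span of ZNF561 and runs the other way, had a log2 fold change of 0.00 ± 0.07 (SE) with the block.

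**Figure D3:**
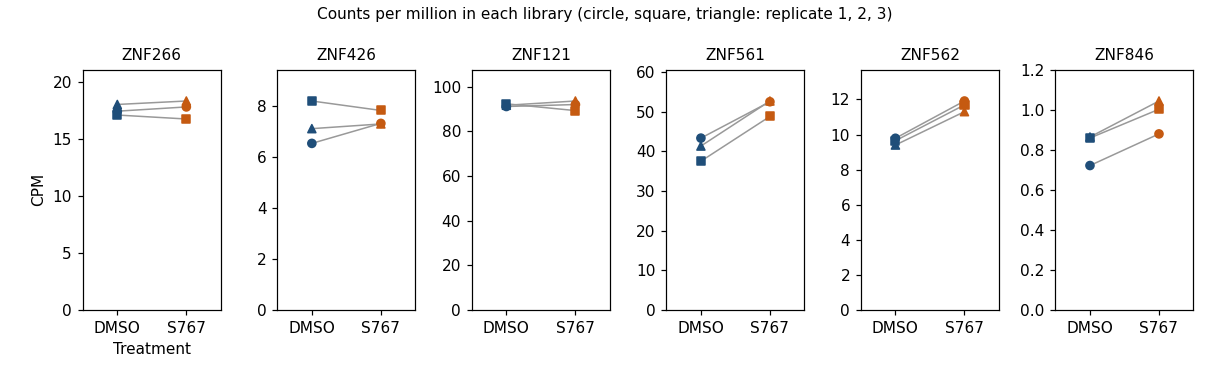
CPM (vertical axes, each starting at 0) in DMSO and S767 libraries for 6 genes in chromosomal order, with lines joining libraries of the same replicate number. ZNF561 rises from 37.5 to 43.4 CPM up to 48.8 to 52.7 CPM and ZNF562 from 9.4 to 9.79 up to 11.3 to 11.9, while ZNF266, ZNF426 and ZNF121 overlap between treatments.

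The promoters of these neighbours were read to see what the genes that rose share with those that did not. RefSeq windows of 250 bases before to 50 after the start (GRCh38.p14) were matched for 171 of the 189 members. The 8 letters TGACGTCA, known as the cAMP response element and bound by CREB and ATF family proteins, occurred in 7 of these 171 promoters (4.09%), beside 1.98% of 27305 promoters of all genes and 9 of 214 promoters (4.21%) of ZNF genes on other chromosomes. Unlike the members, these comparison sets had no TPM limit. The sequence of the motif is the same on both strands. This motif and the others searched were chosen after the values were seen. The 5 neighbours in cluster 2 all held TGACGTCA. Beyond the motifs chosen, stretches common to the 5 were not searched for. Each match is printed here on the gene's own (minus) strand with the motif in capitals and 11 bases on each side.
ZNF266, chr19:9435572-9435601: ggaggcggaagTGACGTCAcggagcgctgc
ZNF426, chr19:9538648-9538677: gagagcgtaaaTGACGTCAgcggtgcgccg
ZNF121, chr19:9584536-9584565: cggagcggaagTGACGTCAgcgcacaatcg
ZNF561, chr19:9621237-9621266: tgaagcggaagTGACGTCAgcgcaccaccg
ZNF562, chr19:9675089-9675118: cggagcggaagTGACGTCAgtgtgccaccg

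In ZNF266, ZNF426, ZNF121 and ZNF561 the motif ended 9, 13, 42 and 15 bases before the RefSeq start used for the windows. In ZNF562 the last base of the motif was the RefSeq start itself. The GENCODE starts used for gene positions can differ from these. For ZNF561, on the minus strand, the GENCODE start is 9621399. The match at 9621237 to 9621266 thus lies inside the GENCODE span of ZNF561. Over the whole windows, ZNF561 was identical to ZNF562 at 226 of 274 aligned bases (82.5%), to ZNF121 at 79.8% and to ZNF266 at 68.3%. The identity was 66.7% with ZNF426, 55.9% with ZNF846 and 49.8% with ZNF358. Among these members, the motif and the likeness of the window were shared by genes that rose and by genes whose intervals span 0. Whether the window of ZNF846, which is not a member, holds the motif was not read. A part of the motif in the rise was not tested. The other 2 members with the motif, ZNF543 and ZNF547 in cluster 16, had log2 fold changes of -0.05 ± 0.06 and 0.08 ± 0.07 (SE) with the block. A match is a run of letters and does not show that a factor binds there.

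The metal response element, searched as TGCGCNC or TGCACNC on both strands and bound by the zinc sensor MTF1, was present in 40.9% of member promoters, in 36.0% of those of ZNF genes on other chromosomes and in 29.3% of all promoters. Members with and without it had median log2 fold changes of 0.03 and 0.01. CCAAT was present in 56.7% of member promoters, 43.5% of those of ZNF genes elsewhere and 35.7% of all, and the median log2 fold change was 0.00 with it and 0.03 without it. GGGCGG was present in 69.0%, 59.3% and 44.6%, with a median of 0.02 both with and without it. The comparison sets had no TPM limit here either. Median GC content was 60% in member promoters and 58.3% in all promoters, and the median count of CG pairs was 20 and 14. A part of base content or of the TPM limit in these shares was not tested.

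ZNF358 (ENSG00000198816.7, chr19:7515292-7521026, plus strand, 9 fingers) was the third member past the adjusted limit with the block. It had 10.1, 10.8 and 9.17 CPM in DMSO and 11.1, 12.6 and 10.5 CPM in S767. The groups overlapped, and S767 was higher within each replicate number. The log2 fold change was 0.18 ± 0.04 (SE) with the block (adjusted p = 0.0445) and 0.18 ± 0.09 without it (unadjusted p = 0.0901), and the exact permutation test of log2 CPM gave p = 0.2. Its unique counts were 65.4% of its RSEM counts, and in the RSEM counts with the block the log2 fold change was 0.17 ± 0.03 (adjusted p = 0.0389).

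By position, the medians of the large clusters lay close to 0. With the block, the median log2 fold change was 0.03 in cluster 2, 0.04 in cluster 3, -0.01 in cluster 5, 0.04 in cluster 9, 0.05 in cluster 12, 0.02 in cluster 15 and -0.02 in cluster 16. In fits without the block, the sign turned in clusters 5 and 16 when a library was left out. Cluster 5 turned positive without DMSO replicate 1 (0.01), DMSO replicate 3 (0.02) or S767 replicate 2 (0.04), and cluster 16 without DMSO replicate 1 (0.00), DMSO replicate 3 (0.01) or S767 replicate 2 (0.01). The median of cluster 3 ran from 0.01 without S767 replicate 3 to 0.06 without DMSO replicate 3. Leaving out a single library also unbalances the replicate numbers between the groups. With the block, cluster 16 stayed below 0 when replicate 1, 2 or 3 was left out (-0.017, -0.014 and -0.018). Cluster 5 then had 0.002, -0.009 and -0.029. At an unadjusted P under 0.05 with the block, where 9.38% of all genes were higher and 7.39% lower, cluster 2 had 3 members higher and 0 lower, cluster 3 had 2 and 0, cluster 5 had 1 and 2, clusters 9 and 12 had 1 and 0 each, cluster 15 had 4 and 2, and cluster 16 had 0 and 5. In clusters 2, 15 and 16 these were 30%, 18.2% and 10.9% of the tested members, beside 16.8% of all genes in either direction. In clusters 3, 5, 9 and 12 they were 8.70%, 10.3%, 5.88% and 6.67%. Cluster 2 had only 10 tested members, and the differences between these shares were not tested. The largest falls in cluster 16 were those of ZNF784 (-0.14 ± 0.06, SE), ZNF264 (-0.12 ± 0.04) and ZNF8 (-0.11 ± 0.04), and the largest rise in cluster 15 was that of ZNF577 (0.19 ± 0.06), all 4 named after their values were seen. Their adjusted p-values with the block (edgeR) were 0.244, 0.128, 0.211 and 0.131, and all 4 were above 0.05 unadjusted without the block. Between neighbouring members of a cluster, Pearson's r of the log2 fold changes was 0.13 over 172 pairs, and 0.05 over 170 pairs without those that joined ZNF561 and ZNF562 to each other and to ZNF121. Spearman's rho was 0.18 over the 172 pairs and 0.17 over the 170. These pairs share their libraries and, in part, their reads.

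CPM values that did not overlap between the groups were found for 7 members higher in S767 (3.72%) and 3 lower (1.60%), beside 5.12% and 4.08% of all genes tested. The 7 were ZNF561, ZNF562, ZNF333, ZNF565, ZNF114, ZNF577 and ZNF615, and the 3 were ZNF784, ZNF581 and ZNF8. Within replicate numbers, 51 members (27.1%) were higher in S767 in all 3 pairs and 23 (12.2%) were lower in all 3, beside 19.9% and 17.8% of all genes tested. The corresponding shares of protein-coding genes with a TPM of at least 1 were 26.1% and 18.7%.

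Members with a known role in silencing transposable elements had small differences. ZNF91, which represses SVA elements, had 27.2, 21.1 and 27.4 CPM in DMSO and 26.1, 18.99 and 26.9 CPM in S767. It was lowest in replicate 2 of both groups, and with the block its log2 fold change was -0.08 ± 0.03 (SE), with an unadjusted p of 0.0414 and an adjusted p of 0.274, and an unadjusted p of 0.629 without the block (edgeR). ZNF93, which binds L1PA elements, had 23.2, 25.2 and 28.4 CPM in DMSO and 23.9, 24.1 and 26.0 CPM in S767, with a log2 fold change of -0.05 ± 0.04 (SE). ZNF611, which binds SVA elements, had a log2 fold change of -0.00 ± 0.04 (SE), and the close paralogs ZNF587 and ZNF417, which bind endogenous retroviruses, had -0.04 ± 0.03 and 0.03 ± 0.04 (SE). Stretches shared with ZNF587 made up 30.5% of those of ZNF417, so reads of this pair could be split between them.

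Differences were also small for other well-studied members. ZNF274, which recruits SETDB1 to the 3' ends of zinc finger genes themselves, had 6.95, 6.65 and 6.97 CPM in DMSO and 6.65, 6.73 and 6.44 CPM in S767. Its groups overlapped, and the log2 fold change with the block was -0.05 ± 0.05 (SE). The KRAB repressors ZNF224 and ZNF382 had -0.02 ± 0.04 and 0.07 ± 0.06 (SE), and the imprinted gene ZNF331 had 0.04 ± 0.06 (SE). ZNF146 had a log2 fold change of 0.07 ± 0.03 (SE) with an adjusted p of 0.195 with the block and an unadjusted p of 0.106 without it (edgeR).

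Of the leading genes by cluster, ZNF700 had a log2 fold change of 0.13 ± 0.04 (SE) with the block (unadjusted p = 0.0126, edgeR) but of 0.02 in the RSEM counts, its unique counts being 76.9% of the RSEM counts. ZNF507 had -0.09 ± 0.03 (SE, unadjusted p = 0.00968, adjusted p = 0.132) and ZNF333 had 0.08 ± 0.04 (SE, unadjusted p = 0.0480, adjusted p = 0.292), both with the block. ZNF317, ZNF787, ZNF428, ZNF101, ZNF28, ZNF57, ZNF574, ZNF780A, ZNF302, ZNF114, ZNF473 and ZNF536 had adjusted p-values above 0.05 in both fits. Without the block the unadjusted p-values (edgeR) of ZNF700, ZNF507 and ZNF333 were 0.0795, 0.0852 and 0.196.

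Levels of the members also differed between replicate numbers. For each member the mean log2 CPM of the DMSO and S767 libraries was taken within each replicate number, and the range of these 3 means had a median of 0.20 over the members. It exceeded the size of the log2 fold change for 171 of the 188 tested members (91.0%), beside 83.9% of all genes tested. A range of 3 means tends to exceed a single difference between group means even without replicate effects. The count therefore cannot show that replicate numbers differed more than the treatments. The same median was 0.16 for 201 ZNF genes on other chromosomes, 0.12 for 641 other protein-coding genes on chromosome 19 and 0.14 for other protein-coding genes of 1 to 20 TPM with a transcript GC content under 45%.

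Replicate 2 was the lowest of the 3 for 113 members and the highest for 40. ZNF566, a member of cluster 9 chosen after its values were seen, had 11.5, 7.64 and 12.7 CPM in DMSO and 12.1, 7.68 and 12.5 CPM in S767. ZNF547 had 3.24, 1.85 and 2.92 CPM in DMSO and 3.31, 1.92 and 3.22 CPM in S767. In both genes replicate 2 stood lowest under each treatment, by far more than the treatments differed. The median deviation in replicate 2 was -0.07 for the 163 tested members with a transcript GC content under 55% and 0.03 for the 25 at or above it. At a GC content under 45% it was -0.07 for members and -0.07 for ZNF genes on other chromosomes. Under the same GC content it was -0.02 for other protein-coding genes of 1 to 20 TPM and -0.01 for those of at least 1 TPM. Within the members GC content thus moved with the replicate difference, and its part in it was not tested.

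Similar neighbours can share reads, and the 2 kinds of count treat those differently: STAR's gene counts hold only fragments with a single place in the genome and a single gene, and RSEM divides the others by probability. The median member had STAR counts at 106% of its RSEM counts, 17 members were under 75% and 5 were under 10%. Those 5, named after their values were seen, were ZNF177 (1.17%), ZNF564 (2.94%), ZNF709 (3.50%), ZNF20 (4.37%) and ZNF625 (5.95%). Of the stretches of 50 bases in ZNF177, 86.8% also occur in the readthrough gene ZNF559-ZNF177, and 63.7% of those in ZNF625 occur in ZNF625-ZNF20. With 25 counts in all, ZNF177 was the only member not tested. In the RSEM counts with the block the log2 fold changes of the 5 were 0.03, 0.04, 0.03, -0.12 and -0.00, in the order above. Over all members the median shared portion was 2.69%, with 24 members sharing none and 8 sharing over 50%.

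**Figure D4:**
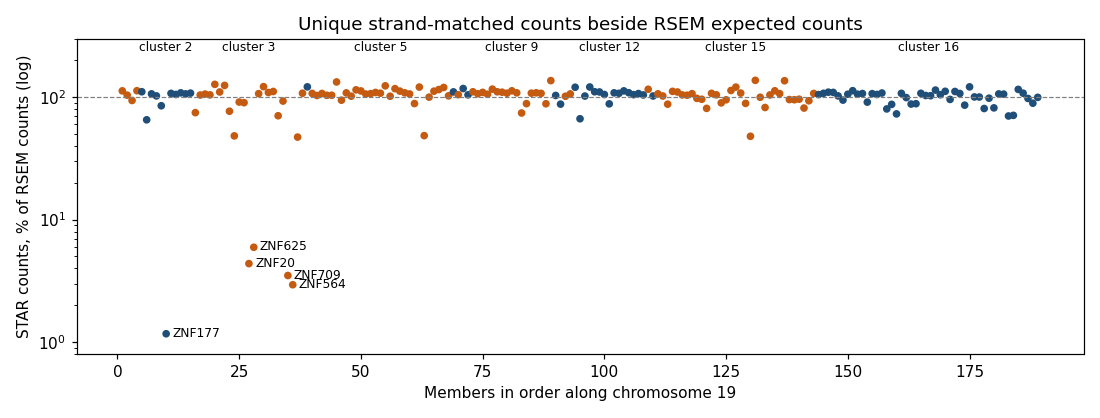
STAR gene counts as a percentage of RSEM expected counts, summed over the 6 libraries (vertical axis, log scale), for the 189 members in order along chromosome 19 (horizontal axis), coloured alternately by cluster, with 100% dashed. Most lie near the dashed line, and ZNF177, ZNF564, ZNF709, ZNF20 and ZNF625 lie under 10%.

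Fragments from the opposite strand of the members were few. They made up a median of 0.667% of a member's fragments on both strands. The portion was over 50% for ZNF575 (92.0%), ZNF20 (90.3%), ZNF497 (61.7%) and ZNF433 (53.7%), named after their values were seen. It rests on STAR's unique counts, which for ZNF20 were 4.37% of its RSEM counts. Fragments of ZNF20 that STAR left out thus do not enter its portion, which does not measure how much of its transcription is antisense. For ZNF562, which overlaps the antisense gene ZNF561-AS1, the portion was 16.5%. Of 138 members testable on the opposite strand, 1 was higher and 1 lower at an unadjusted P under 0.05 without the block, beside 0.915% and 1.2% of all genes testable there (2.12% in either direction). With the block 3 were higher and 4 lower at the unadjusted limit, beside 3.81% and 5.51% of all genes (9.32% in either direction). After adjustment 0 members were called without or with the block (edgeR), where 0.694% of all genes were called with it.

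The partners through which KRAB proteins act were expressed throughout. TRIM28, the scaffold bound by the KRAB domain, stood at 701 TPM with a log2 fold change of 0.01 ± 0.03 (SE) with the block, and SETDB1 stood at 49.4 TPM with 0.04 ± 0.02 (SE). Of 29 listed corepressor genes, all tested, 4 were higher and 5 lower at an unadjusted P under 0.05 with the block, beside 9.38% and 7.39% of all genes, and 2 passed the adjusted limit, beside 3.23%, ATF7IP and DNMT3A. Without the block 2 were higher and 0 lower at the unadjusted limit, beside 2.03% and 1.51%, and 0 passed the adjusted limit. The median log2 fold change of the list was 0.00, as over all genes tested. ATF7IP, the partner that stabilises SETDB1, had 60.9, 68.0 and 67.3 CPM in DMSO and 68.3, 80.6 and 79.0 CPM in S767. Every S767 library was above every DMSO library, as for 5.12% of all genes tested. The log2 fold change was 0.22 ± 0.07 (SE) without the block (adjusted p = 1.00) and 0.21 ± 0.03 with it (adjusted p = 0.00103).

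DNMT3A, a DNA methyltransferase, had 65.4, 70.3 and 68.9 CPM in DMSO and 71.8, 76.4 and 73.0 CPM in S767. The groups did not overlap in CPM here either, as for 5.12% of all genes tested that were higher in S767. In TPM they overlapped, with 22.55, 22.98 and 23.1 in DMSO and 24.96, 22.71 and 24.28 in S767. The log2 fold change was 0.11 ± 0.02 (SE) with the block (adjusted p = 0.0278) and 0.11 ± 0.04 without it (unadjusted p = 0.0323, adjusted p = 1.00, edgeR). Of 12 genes of H3 lysine 9 methylation and heterochromatin, 0 passed the adjusted limit with the block, beside 3.23% of all genes tested. SETDB2 alone passed the unadjusted limit with the block, beside 16.8% of all genes. Its log2 fold change was 0.10 ± 0.03 (SE, adjusted p = 0.0580) with the block, and its unadjusted p was 0.0708 without it (edgeR).

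Other groups of genes gave larger shares of calls than the members. The backgrounds at the unadjusted limit with the block were 16.8% of all genes tested and 24.6% of protein-coding genes with a TPM of at least 1. At the adjusted limit the background was 3.23% of all genes tested. With the block, 31 of 201 ZNF genes on other chromosomes (15.4%) passed the unadjusted limit and 8 the adjusted limit, 6 of them higher in S767 and 2 lower. Among other protein-coding genes on chromosome 19, 148 of 641 (23.1%) passed the unadjusted limit, and 16 higher and 14 lower passed the adjusted limit. The median SE with the block was 0.04 for the members, 0.03 for the ZNF genes elsewhere and 0.03 for the other genes on chromosome 19, and the median level of the last was 38.5 TPM. The differences between these shares were not tested.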

How the data were processed

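RNA-seq of OCI-AML5 cells was analysed in 6 libraries, 3 given DMSO and 3 given 1 μM S767 for 24 hours. Per the submitters' processing notes, STAR 2.7.1a and RSEM 1.2.28 were used with GRCh38; the annotation release is not given in the sources used here. The authors deposited STAR's gene counts for each strand (raw counts; the reverse-strand column was used as the main measurement) and RSEM's output. From RSEM, the deposited expected counts were rounded to whole numbers for testing, and the deposited TPM values, normalised by the authors for transcript length and library, were used for levels and membership. The summary lines that name no gene (20.3% of fragments) entered neither the library sizes nor the tests. Gene counts per library ran from 149994700 to 258029564, so counting error is small for most members, and intervals cover the spread between these libraries only. No pair of libraries agreed within sampling noise.

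Gene types and positions came from GENCODE 29, which held 58502 of 60609 gene identifiers, 41747 of them in the same version. Genes passing filterByExpr (minimum count 10) numbered 20725. S767 was compared with DMSO by edgeR 4.0.16 (R 4.3.3; TMM, quasi-likelihood test, Benjamini-Hochberg adjustment over all genes tested). Alternatives were DESeq2 1.42.0, limma 3.58.1 (voom), other scaling and filters, RSEM counts, removal of GC and length trends, leaving out libraries, and the replicate number as a block. Deviations from group means over 6191 genes correlated at 0.7794, 0.8717 and 0.7537 between libraries of the same number and were negative between all others, so the numbers were taken to pair the libraries. This pairing comes from the data, not from the labels. Promoter motifs were searched in RefSeq windows; a further motif that was searched is not reported here. The fitting code was tested on simulated data.

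Named genes were members at an unadjusted P under 0.05 without the block or an adjusted p under 0.05 with it, the member with the highest TPM in each cluster, a list of well-studied members, TRIM28, SETDB1 and corepressor or heterochromatin genes past the adjusted limit with the block, and the 2 genes nearest the TPM limit on each side. The members and lists were chosen with earlier results of these data known.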

Additional observations from a re-analysis of the deposited data

How the results depend on the processing

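The count of all genes at an unadjusted P under 0.05 was 732 without the replicate block. Pairing libraries by the block gave 3475, and the block with library size alone, RSEM counts, limma-voom or GC and length trends removed gave 3454, 3322, 3428 and 3846. Leaving out a pair of libraries under the block gave 1895 to 4362 (2791 without replicate 3). For members higher in S767 the count of 2 became 13 with the block, 9, 8, 12 and 10 in the same order, 5 to 16 without a pair, and 1 with membership at a TPM of at least 5. For members lower in S767 the count of 0 became 10 with the block, 10, 7, 9 and 10 in the same order, and 1 to 12 without a pair. Without the block it became 2 without DMSO replicate 1 and 1 without S767 replicate 3, and stayed 0 without each of the other 4 libraries. The adjusted calls went from 0 to 2 with DESeq2, 3 with the block, 2, 3, 3 and 3 in the same order, and 1 to 8 without a pair. On the opposite strand, the count of 2 became 7 with the block, an alternative chosen after seeing the data. The cause was not tested.

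Without the block, leaving out each library moved the median log2 fold change of the members from 0.0154 to between -0.016 and 0.046. It was below 0 without DMSO replicate 2 or S767 replicate 3, and membership at a TPM of at least 5 gave 0.000991. With the block, leaving out replicate 1, 2 or 3 gave 0.0127, 0.0193 and 0.00655. For single libraries left out without the block, the ranges were 0.018 to 0.065 for cluster 2, 0.0066 to 0.063 for cluster 3, -0.058 to 0.042 for cluster 5, 0.0029 to 0.11 for cluster 9, 0.012 to 0.073 for cluster 12, 0.0056 to 0.046 for cluster 15 (0.0367 with the block without replicate 2) and -0.039 to 0.012 for cluster 16.

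Of 32 named genes under 22 alternatives, 0 reversed a called direction. The sign changed without a call in 76 of 704 values, at most 0.13 in size. ZNF358 had an unadjusted P under 0.05 in 9 of its 22 alternatives, ATF7IP in 19 and DNMT3A in 18. With 3 libraries a group, the median SE of 0.09 without the block limits what could be detected.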
